A study of Rattus norvegicus with 9 samples.

Results

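Molecular chaperones and their partner proteins were followed at the mRNA level in cardiac RNA-seq libraries of rats. The set was chosen by gene symbol and takes in heat shock proteins, heat shock factors, J proteins (Dnaj), BAG proteins, the CCT chaperonin, FK506-binding proteins (Fkbp), protein disulfide isomerases (Pdia), calreticulin, calnexin and a few further co-chaperones. It held 36 of the 5760 genes listed in either of the 2 deposited tables, namely 24 of 4288 genes in the table of the Cal and model groups and 19 of 2458 genes in the table of the model and sham groups, with 7 genes in both. Genes carry mouse Ensembl identifiers and coordinates although the samples are rat. Each table is a selection, since every listed gene has a deposited adjusted p under 0.05. A chaperone that is not listed was not analysed here. In the RefSeq rat annotation (GRCr8) 129 protein-coding symbols match the same rule, of which 35 were listed. The other listed gene is the pseudogene Hspd1-ps3.

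The 9 libraries came from hearts of male Sprague-Dawley rats, 3 per group. Sham rats (labelled control, headed Con in the tables) had surgery without ligation and then received distilled water. Model rats had the left anterior descending coronary artery ligated and received distilled water, and Cal rats had the same ligation and then 80 mg/kg of calycosin (Cal), a compound of Astragalus, by mouth each day. Treatment started 24 h after surgery and lasted 28 days, and the study took 3 animals of each larger group by random sampling, at an age not given in the sources used here. The first table asks what calycosin changed after ligation and the second what ligation changed. The headings of the columns conflict, however. The second table is named for the model and sham groups, yet its sample columns are headed Cal and Con. The sample columns headed Model have their mean in the column headed Cal, and those headed Cal have theirs in a column headed Model, within 0.1% in 4288 of 4288 and 2458 of 2458 genes. The libraries headed Cal hold identical reads in the 986 genes that the tables share. Libraries are therefore called by their sample heading throughout, and by the headings of the mean columns Cal and Model would change places in every direction given.

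Chaperones bind unfolded or partly folded proteins and help them to reach or keep their shape. In the cytosol Hsp70 works with J proteins, which deliver clients and stimulate its ATPase, and with BAG proteins, which release the nucleotide, while Hsp90 finishes a narrower set of clients with the help of FKBP co-chaperones. Small heat shock proteins hold aggregation-prone proteins without ATP and are abundant in muscle, and the CCT ring folds actin and tubulin. The endoplasmic reticulum (ER) has its own folding enzymes and a stress response that induces them, and mitochondria have a separate set around Hsp60 and mitochondrial Hsp70. Inducible cytosolic members are switched on by heat shock factor 1 through heat shock elements in their promoters.

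In the deposited sample columns a gene's value is its read count divided by a size factor of the library, here called the normalized count. Fold changes are differences of log2(normalized count + 1), libraries headed Cal minus the other group of the table, with limma on all genes of that table, and are given with their standard error (SE). A gene was called when its adjusted p was under 0.05 and its log2 fold change above 1 or below -1. Against the libraries headed Model, 5 of the 24 chaperone genes rose in the libraries headed Cal (Hspa1b, Hspa1a, Hspa12a, Dnaja1 and Fkbp2), where 28.4% of all listed genes did, and 2 fell (Fkbp5 and Hsf2bp), where 31.6% did. Against the libraries headed Con, 3 of 19 rose (Hspa1b, Hspa1a and Fkbp5), with 18.0% of all listed genes, and 2 fell (Hspa12b and Hspd1-ps3), with 10.9%. By the adjusted p alone, 13 chaperone genes were higher and 11 lower than in the libraries headed Model, and the shares over all listed genes were 46.0% and 53.7%. Against Con the counts were 11 higher and 8 lower, with 60.6% and 39.2% over all listed genes. The median log2 fold change of the chaperone genes was 0.48 against Model and 0.43 against Con, beside -0.52 and 0.37 over all listed genes. For the 21 cytosolic or nuclear genes alone it was -0.43 against Model, with 10 higher and 11 lower by the adjusted p. The sign of the median against Model therefore depends on which members are included, and no shift of the set is read from it. The 3 libraries of each group did not overlap for 23 of the 24 genes against Model, with 98.2% of all listed genes, and for 18 of the 19 against Con, with 97.4%. Two-sided exact permutation tests of 3 libraries against 3 cannot give a p under 0.1.

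**Figure D1:**
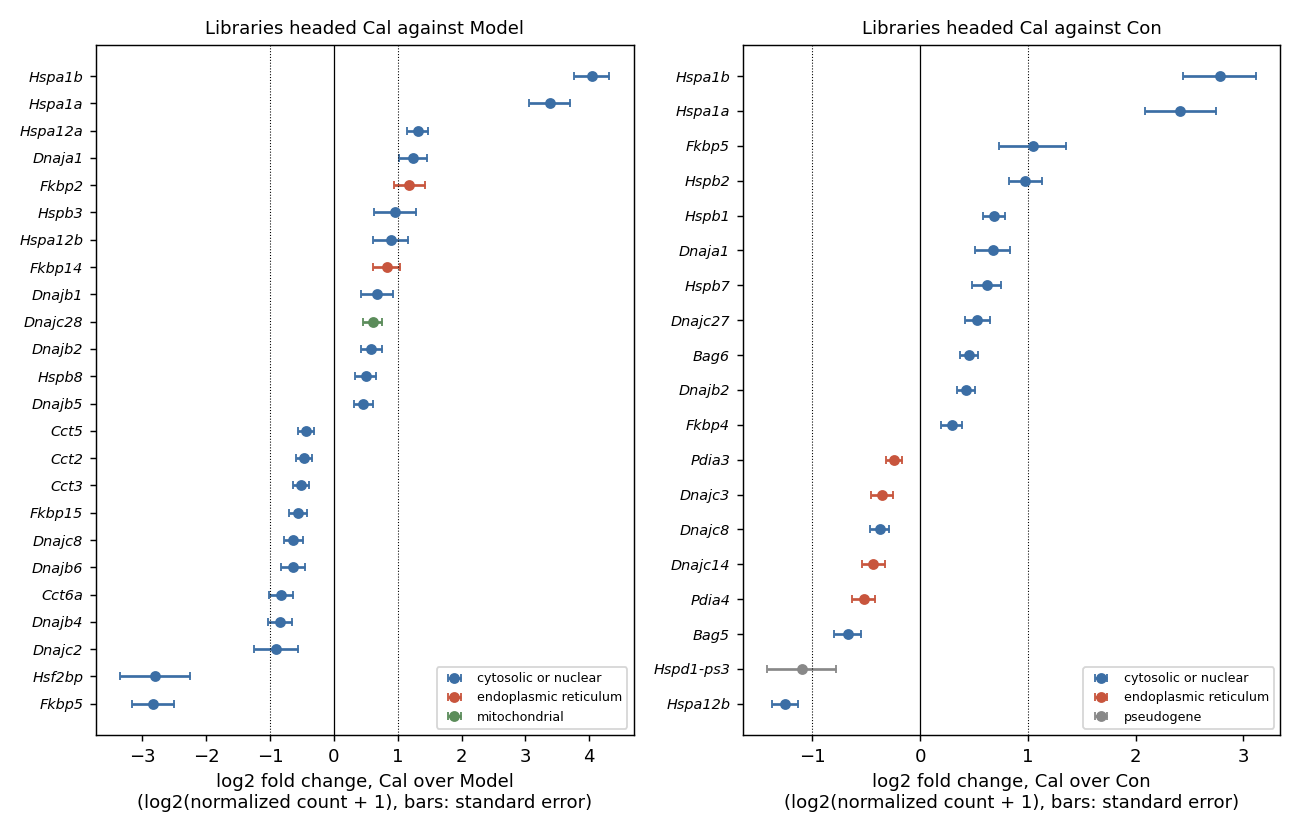
Log2 fold change (x axis) of each listed chaperone gene in the libraries headed Cal against Model (left, 24 genes) and against Con (right, 19 genes), with standard errors as bars, colours by compartment and dotted lines at -1 and 1. Hspa1b and Hspa1a have the highest fold changes in both panels, Fkbp5 is lowest on the left and next below them on the right, and the 4 endoplasmic reticulum genes on the right lie between -0.52 and -0.25.

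The small fold changes depend on the scaling. Size factors recomputed on the listed genes by the median-ratio method shifted the fold changes by a median of 0.30 over all genes of the Cal and model table and by -0.28 in the other table. With it 13 chaperone genes were higher and 5 lower by the adjusted p against Model, and 6 and 8 against Con. Among all listed genes the called ones were then 1646 higher and 1047 lower against Model, in place of 1219 and 1356, and 342 and 447 against Con, in place of 443 and 269. Quantile normalization shifted the fold changes of all listed genes by a median of 0.16 against Model and -0.31 against Con. It left 13 chaperone genes higher and 3 lower against Model and 5 and 8 against Con. The sign of 3 genes turned in each table (Cct2, Cct3 and Cct5 against Model, Bag6, Dnajb2 and Fkbp4 against Con). The calls over all listed genes were then 1393 higher and 1175 lower against Model and 348 and 387 against Con. Both scalings assume that most genes are alike between the groups, whereas every listed gene was selected for a difference. With median-ratio scaling and quantile normalization the median over all listed genes went from -0.52 to -0.23 and -0.10 against Model. Against Con it went from 0.37 to 0.09 and -0.04. Which scaling gives the right direction for a small fold change was not tested.

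Cell type markers moved between the groups as well, and in bulk tissue fewer cells of a type and less RNA per cell cannot be told apart. Of 8 neutrophil markers, 8 fell in the libraries headed Cal against those headed Model, with a summed normalized count of 212 to 591 against 25853 to 29288 and none at 0 in any library. Of 6 endothelial markers, 5 were listed against Model and 4 of them rose (sums 9574 to 11398 against 3446 to 4496, none at 0). None of 12 cardiomyocyte markers was listed against Model, and 3 were listed against Con, with sums of 412018 to 417372 in the libraries headed Cal and 298450 to 377489 in those headed Con, all 3 higher by the adjusted p and none called. Macrophage markers were split, with 2 of 8 called higher and 2 lower against Model (sums 6344 to 6625 against 2488 to 3691). Of 7 fibroblast markers 4 were listed against Model and 2 of them rose (sums 17378 to 21126 against 15696 to 22941). By the adjusted p 3 of the listed fibroblast markers were higher and 1, Dcn, was lower. Against Con, 4 of 8 neutrophil markers were listed and all rose (sums 199 to 607 against 59.6 to 89.1, with Fpr1 at 0 in at least 1 library), while 1 of 8 macrophage markers was called higher and 1 lower (sums 2025 to 2765 against 1144 to 1273). Of 7 fibroblast markers 3 were listed against Con, all lower by the adjusted p, and 1 of them fell past the fold limit (sums 9463 to 12300 against 14247 to 15843). Their part in the chaperone results was not tested.

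The inducible cytosolic Hsp70 genes gave the largest rises of the set. Hspa1b (ENSMUSG00000090877, mouse chromosome 17 from 34956436 to 34959238 as deposited, with no genome build stated for the coordinates) had normalized counts of 67.0, 41.5 and 50.8 in the libraries headed Model and 648, 868 and 1181 in those headed Cal. Hspa1a (ENSMUSG00000091971, chromosome 17 from 34969190 to 34972156), which encodes nearly the same protein, had 35.6, 24.4 and 53.7 against 410, 297 and 466. Every library headed Cal stood above every library headed Model for each gene, by at least 9.67-fold for Hspa1b and 5.53-fold for Hspa1a. The log2 fold changes were 4.04 (SE 0.27, limma adjusted p = 0.000111) and 3.38 (SE 0.32, limma adjusted p = 0.000244).

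In the other table, Hspa1b had 724, 973 and 1317 in the libraries headed Cal against 91.3, 234 and 132 in those headed Con, and Hspa1a had 458, 333 and 520 against 60.6, 139 and 59.7. The second library headed Con was the highest of its group for each gene, yet still below every library headed Cal. The log2 fold changes were 2.78 (SE 0.34, limma adjusted p = 0.000277) for Hspa1b and 2.42 (SE 0.33, limma adjusted p = 0.000503) for Hspa1a, and leaving out any library kept them between 2.47 and 3.14 and between 2.21 and 2.82. The reads of these near-identical copies may be split between them, so their sum is the safer value. It was 91.0 ± 21.8 in the libraries headed Model and 1290 ± 314 in those headed Cal, which is 14.2-fold higher, and, in the other table, it was 239 ± 118 in the libraries headed Con and 1442 ± 348 in those headed Cal, which is 6.04-fold higher (SD, n = 3 each). Hspa1b took 48.6% to 65.3% of the sum in the libraries headed Model, 61.3% to 74.5% in those headed Cal and 60.1% to 68.8% in those headed Con.

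Of the distant Hsp70 relatives, Hspa12a rose against Model and Hspa12b fell against Con. Hspa12a, whose product has an Hsp70-like ATPase domain, had 206, 251 and 219 in the libraries headed Model and 625, 469 and 594 in those headed Cal, without overlap. It rose with a change of 1.31 ± 0.17 on the log2 scale (SE, limma adjusted p = 0.000632) and is not listed for the second table. Hspa12b (ENSMUSG00000074793, chromosome 2 from 131127280 to 131146321), which is known for its expression in endothelial cells, had 751, 899 and 808 in the libraries headed Con against 383, 304 and 345 in those headed Cal. The groups were apart, and the gene fell by 1.25 on the log2 scale (SE 0.12, limma adjusted p = 8.68e-05). In the Cal and model table it had 342, 271 and 309 in the libraries headed Cal and 214, 109 and 194 in those headed Model, a log2 fold change of 0.89 under the limit (SE 0.27, limma adjusted p = 0.0144). Without the first library headed Cal the adjusted p was 0.0505 (limma), without the first and the third headed Model the fold change passed the limit at 1.07 and 1.00, and under median-ratio scaling it was 1.18. Without the second headed Model it was 0.59. Of 6 endothelial markers 5 were listed against Con, and by the adjusted p 4 were lower (Kdr, Tek, Cdh5 and Pecam1) and 1 higher (Cldn5). Of these, Kdr fell and Cldn5 rose past the fold limit. Their summed counts were 13218 to 14461 in the libraries headed Cal against 19027 to 21542 in those headed Con, with none at 0. Against Model 4 endothelial markers rose, as given above. Their part in the Hspa12b values was not tested.

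**Figure D2:**
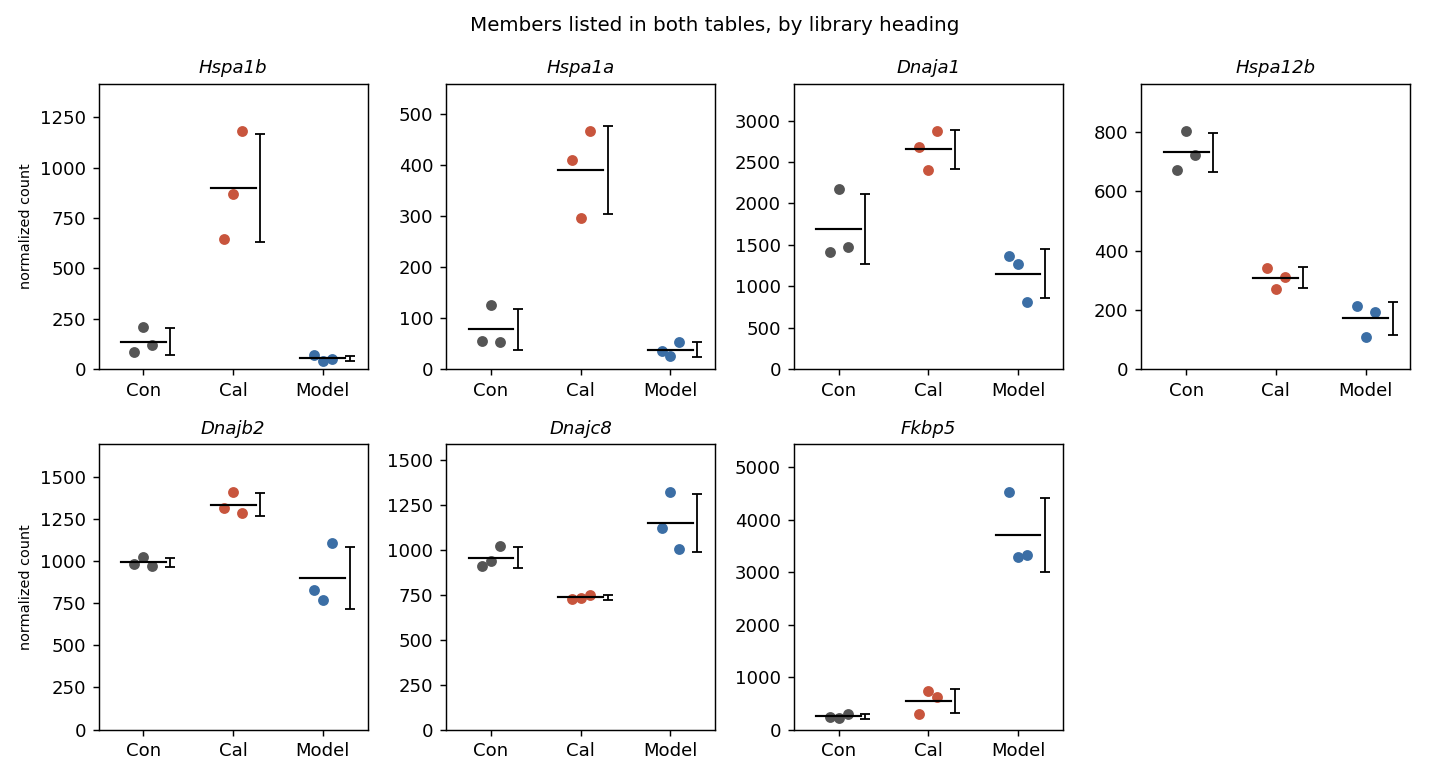
Normalized counts (y axis, from 0) of the 7 chaperone genes listed in both tables, by library heading (x axis), with points for the libraries, lines for the means and bars for the SD (n = 3). The libraries headed Con were divided by 1.12 to bring them to the scale of the Cal and model table. Hspa1b, Hspa1a, Dnaja1 and Dnajb2 are highest in the libraries headed Cal, Dnajc8 is lowest there, Hspa12b is highest in Con, then Cal, then Model, and Fkbp5 is highest in the libraries headed Model.

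The 7 genes in both tables can be followed over the 3 groups, because the same libraries headed Cal link the tables. The size factors of these libraries differed between the tables by a factor of 1.11 to 1.12, and the values of the libraries headed Con were divided by 1.12. The tables were normalized separately, so these levels are a description without a test. Hspa1b, Hspa1a, Dnaja1 and Dnajb2 had their highest mean in the libraries headed Cal and their lowest in those headed Model. The libraries headed Con and Model were apart for Hspa1b (81.7 to 209 against 41.5 to 67.0) and Dnaja1 (1413 to 2178 against 811 to 1368), but overlapped for Hspa1a (53.4 to 125 against 24.4 to 53.7) and Dnajb2 (972 to 1022 against 766 to 1109). Hspa12b was 4.26-fold higher in the libraries headed Con than in those headed Model, without overlap. Dnajc8 had the reverse order, with its lowest level in the libraries headed Cal and an overlap between Con (908 to 1021) and Model (1003 to 1321).

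J proteins form the largest family of the set, with 8 cytosolic or nuclear genes listed against Model. By the adjusted p, 4 were higher and 4 lower, and Dnaja1 alone passed the fold limit. Over all genes listed against Model, 46.0% were higher and 53.7% lower by the adjusted p, and 28.4% were called higher and 31.6% lower. Dnaja1 (ENSMUSG00000028410, chromosome 4 from 40722150 to 40737149), an abundant cytosolic Hsp70 partner, had 1368, 1265 and 811 in the libraries headed Model and 2679, 2404 and 2872 in those headed Cal, and rose with a change of 1.24 ± 0.21 on the log2 scale (SE, limma adjusted p = 0.00174). The the third library headed Model was the lowest, and without it the fold change was 1.01. Against Con its values were 1580, 2435 and 1652 in the libraries headed Con and 2996, 2695 and 3202 in those headed Cal, a change of 0.67 ± 0.16 on the log2 scale (SE, limma adjusted p = 0.00528). As for the Hsp70 genes, the second library headed Con was the highest of its group. That difference was not past the threshold after median-ratio scaling (0.39, limma adjusted p = 0.0756) or quantile normalization (0.19, limma adjusted p = 0.349). The deposited coordinates of Dnaja1 overlap Smu1 on the other strand, and whether reads were counted by strand is not given in the sources used here, so reads of the pair may be mixed. Smu1 itself had a log2 fold change of -0.41 against Model.

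Dnajb1, the heat-inducible J protein, had 307, 376 and 383 in the libraries headed Model and 755, 397 and 602 in those headed Cal, with a gap of only 1.04-fold between the nearest libraries. Its log2 fold change of 0.68 (SE 0.24, limma adjusted p = 0.0270) was not past the threshold without the first library headed Model (adjusted p = 0.0874), the first headed Cal (0.0980) or the third headed Cal (0.0753). Dnajb2, a J protein of neurons and muscle that hands clients to the proteasome, had 826, 766 and 1109 against 1312, 1409 and 1281 in the libraries headed Cal, a log2 fold change of 0.58 (limma adjusted p = 0.0112) that was 1.04 under quantile normalization and 0.88 under median-ratio scaling. Against Con it had 1097, 1143 and 1087 and then 1467, 1580 and 1428, a log2 fold change of 0.43 (limma adjusted p = 0.00228) that became -0.03 under quantile normalization. Dnajb5 was higher as well, from 1046 ± 155 to 1430 ± 83.4 (SD, n = 3 each), and its log2 fold change of 0.46 was not past an adjusted p of 0.05 without the first or the second library headed Cal and was 0.92 under quantile normalization.

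The 4 J proteins with lower values in the libraries headed Cal were Dnajb4, Dnajb6, Dnajc2 and Dnajc8. Dnajb4 had 3591, 4656 and 3203 in the libraries headed Model against 2115, 2421 and 1799, a change of -0.85 ± 0.19 on the log2 scale (SE, limma adjusted p = 0.00444). Dnajb6, which suppresses aggregation and is tied to a muscular dystrophy, had 1190, 1916 and 1549 against 887, 1047 and 1011 (log2 fold change -0.64, limma adjusted p = 0.0135). Dnajc2, a ribosome-associated J protein, had 779, 760 and 317 against 303, 354 and 266. The the third library headed Model lay within the other group, and without it the log2 fold change moved from -0.90 (limma adjusted p = 0.0332) to -1.33, while 4 of the other 5 fits that left out a library were not past the threshold. Dnajc8, a nuclear J protein linked to splicing, had 1119, 1321 and 1003 against 726, 730 and 749 (log2 fold change -0.63, limma adjusted p = 0.00471) and was lower against Con too, with 1016, 1049 and 1142 against 812, 819 and 835 (log2 fold change -0.38, limma adjusted p = 0.00464). Under quantile normalization none of these 4 passed the threshold against Model, with limma adjusted p-values of 0.0564 to 0.400. After median-ratio scaling Dnajb6 (-0.34, limma adjusted p = 0.106) and Dnajc2 (-0.61, limma adjusted p = 0.106) were not past it. Dnajb4 (-0.55, limma adjusted p = 0.0174) and Dnajc8 (-0.33, limma adjusted p = 0.0405) were. Without the first library headed Cal the adjusted p of Dnajb6 was 0.0513. Dnajc27, a J-domain protein with a small GTPase fold that is listed against Con alone, had 260, 235 and 267 there and 358, 370 and 373 in the libraries headed Cal (log2 fold change 0.53, limma adjusted p = 0.00330), which median-ratio scaling took to 0.25 (adjusted p = 0.0816).

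Rat promoters of the listed genes, of all compartments, were searched for the motif named for the heat shock response. RefSeq windows of 250 bases before to 50 after the start (GRCr8) were found by symbol for 28 of the 36 genes, not for Dnajb4, Dnajc2, Dnajc8, Hspa12a, Hspa1b, Hspb2, Hspd1-ps3 or Pdia3. The heat shock element was searched as GAANNTTC, which reads the same on both strands, and with one more unit as GAANNTTCNNGAA or TTCNNGAANNTTC, a match of which also holds the shorter form. The other arrangement of the same units, TTCNNGAA, was not searched on its own. A window without GAANNTTC can therefore hold it, as those of Cct5, Cct6a and Dnajc27 do. GAANNTTC was present in 7 of the 28 windows (Dnaja1, Dnajb1, Dnajb6, Fkbp14, Fkbp4, Hspb1 and Hspb8), and in 8.34% of 27457 rat windows of this length. At least 2 matches were present for Dnaja1, Dnajb1 and Hspb1, and in 0.459% of all windows. The form with one more unit was present for Dnaja1 alone among the 28 genes, and in 0.736% of all windows. The 3 windows with 2 matches are printed 5′ to 3′ on the strand of the gene, with the matches in capitals. That of Dnaja1 lies at chr5:60638154-60638453 on the plus strand, that of Dnajb1 at chr19:41431092-41431391 on the minus strand and that of Hspb1 at chr12:26432252-26432551 on the minus strand of the rat build. These are letter matches and no measure of binding. The window of Hspa1a held no match, which says only that these letters are not in it.
Dnaja1: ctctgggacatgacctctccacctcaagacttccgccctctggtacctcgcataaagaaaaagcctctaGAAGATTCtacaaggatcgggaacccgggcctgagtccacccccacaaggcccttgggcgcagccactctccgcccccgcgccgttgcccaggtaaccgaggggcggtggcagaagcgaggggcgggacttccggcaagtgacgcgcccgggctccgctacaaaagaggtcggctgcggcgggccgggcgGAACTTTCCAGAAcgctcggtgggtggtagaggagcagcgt
Dnajb1: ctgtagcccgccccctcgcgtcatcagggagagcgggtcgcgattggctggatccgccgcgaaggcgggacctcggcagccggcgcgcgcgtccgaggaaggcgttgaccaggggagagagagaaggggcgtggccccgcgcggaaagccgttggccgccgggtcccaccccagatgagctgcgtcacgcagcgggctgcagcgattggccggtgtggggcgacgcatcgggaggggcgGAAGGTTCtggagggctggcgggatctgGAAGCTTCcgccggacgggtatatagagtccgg
Hspb1: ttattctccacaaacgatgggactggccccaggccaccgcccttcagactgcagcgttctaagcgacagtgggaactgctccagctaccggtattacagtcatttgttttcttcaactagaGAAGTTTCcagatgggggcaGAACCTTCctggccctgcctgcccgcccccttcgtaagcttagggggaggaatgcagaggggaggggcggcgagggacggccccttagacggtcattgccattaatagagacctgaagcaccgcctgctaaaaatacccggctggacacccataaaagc

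Of these 3 genes, Dnaja1 was higher in the libraries headed Cal in both tables, Dnajb1 was listed against Model alone and Hspb1 against Con alone. The 4 other genes with a GAANNTTC match did not share a direction, since Fkbp14 and Hspb8 were higher and Dnajb6 lower in the libraries headed Cal against Model, and Fkbp4 was higher against Con.

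All 5 small heat shock protein genes that were listed had higher levels in the libraries headed Cal, 2 against Model and 3 against Con, and none passed the fold limit with the deposited scaling. Over all listed genes, 46.0% were higher by the adjusted p against Model and 60.6% against Con. Hspb1 (ENSMUSG00000004951, chromosome 5 from 135887919 to 135889563), the widely expressed Hsp27 homolog that binds actin filaments, had 3044, 3264 and 3321 in the libraries headed Con and 4444, 5625 and 5487 in those headed Cal. The groups were apart, with a change of 0.69 ± 0.10 on the log2 scale (SE, limma adjusted p = 0.000722), which quantile normalization took to 0.23 (adjusted p = 0.0551) and median-ratio scaling to 0.40. Hspb2, a partner of Hspb3 in muscle, had 350, 258 and 340 against 628, 544 and 690, a change of 0.98 ± 0.15 on the log2 scale (SE, limma adjusted p = 0.000952) that passed the limit without the second library headed Cal (1.07) or without the first (1.06) or the third (1.04) headed Con. Hspb7, the cardiovascular small heat shock protein, had 23322, 15287 and 19844 against 28537, 30135 and 29782 (log2 fold change 0.62 ± 0.14 SE, limma adjusted p = 0.00379). Its fold change was 0.27 under quantile normalization and 0.33 under median-ratio scaling. The second library headed Con was the lowest for Hspb2 and Hspb7, while it was the highest for the Hsp70 genes and Dnaja1. The 3 listed cardiomyocyte markers, Mybpc3, Ryr2 and Myh6, were higher in the libraries headed Cal by the adjusted p as well, with a median log2 fold change of 0.31, and their part in these values was not tested.

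Against Model, Hspb8, which acts with Bag3 in the removal of damaged muscle proteins, had 4472, 4534 and 6081 in the libraries headed Model and 6575, 7161 and 7379 in those headed Cal. Its log2 fold change was 0.50 (SE 0.17, limma adjusted p = 0.0198), and the adjusted p was 0.0541 to 0.0647 in the 4 fits without the first or second library headed Model or the second or the third headed Cal. Its fold change was 1.21 under quantile normalization (limma adjusted p = 0.00108), past the limit, and 0.80 under median-ratio scaling (limma adjusted p = 0.00442). Hspb3 was low, at 34.6, 80.5 and 68.1 against 95.9, 121 and 122, with a change of 0.95 ± 0.33 on the log2 scale (SE, limma adjusted p = 0.0233). It was not past the threshold without the second (adjusted p = 0.0644) or the third (0.0667) library headed Cal and passed the fold limit without the first headed Cal (1.07) or the second (1.19) or the third (1.07) headed Model and under median-ratio scaling (1.25). Without the first headed Model it was 0.60 (limma adjusted p = 0.0425).

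**Figure D3:**
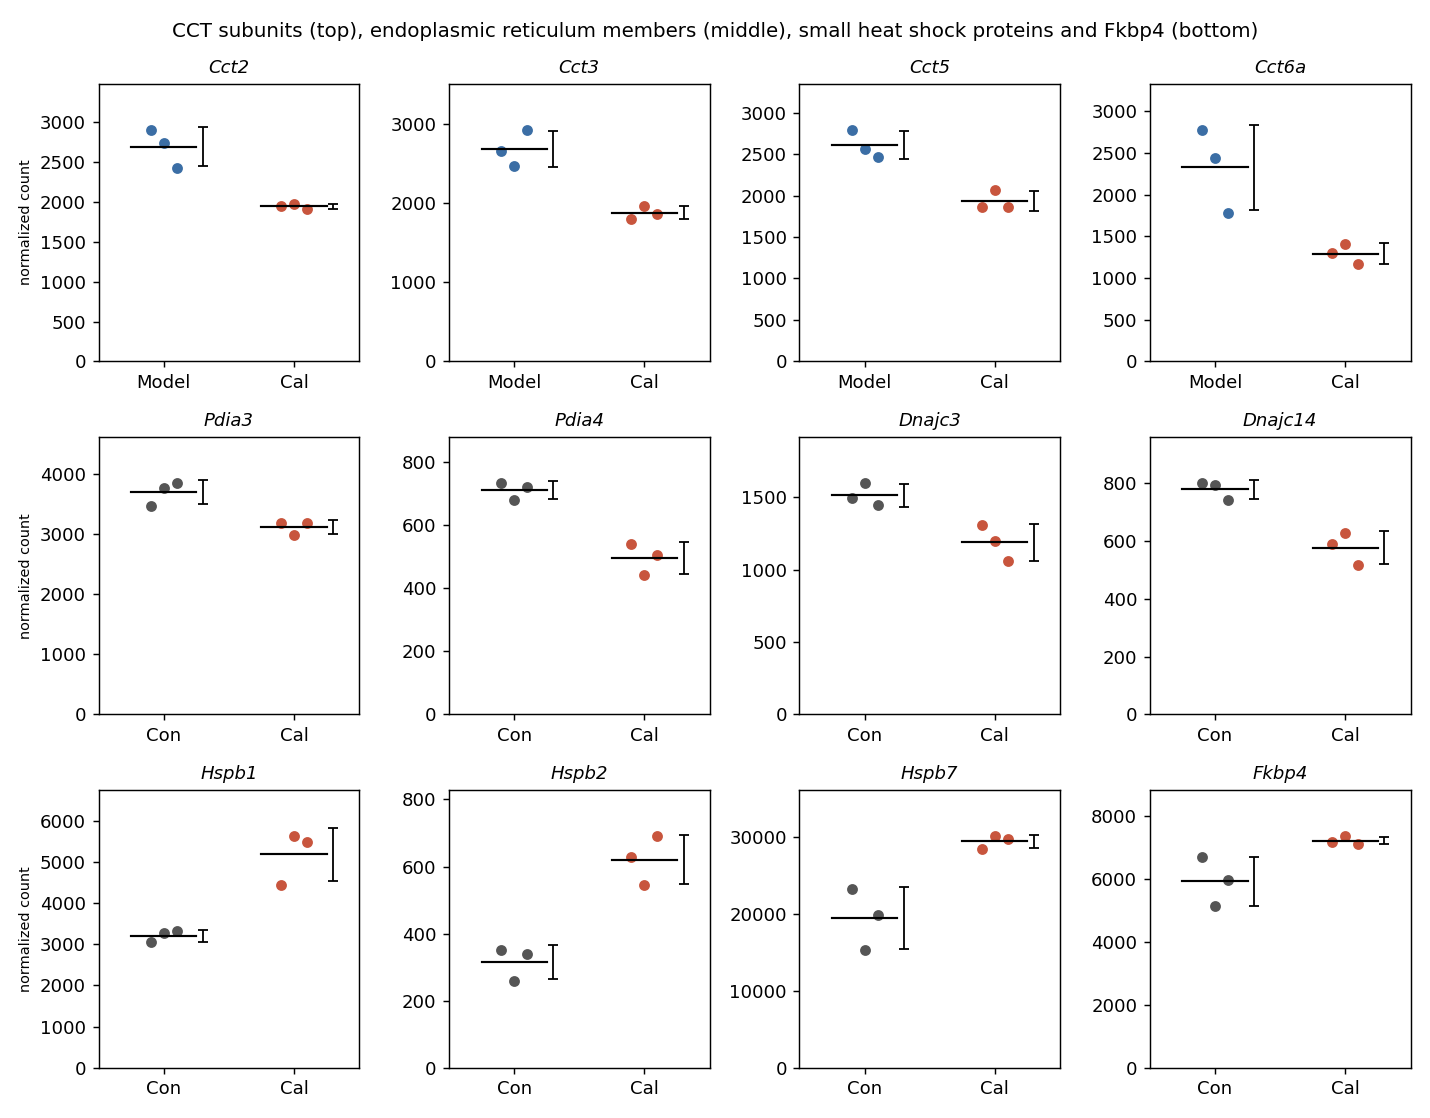
Normalized counts (y axes, each from 0) by library heading (x axes), with points for the libraries, lines for the means and bars for the SD (n = 3). Top row, 4 CCT subunits in the libraries headed Model and Cal, all lower in Cal (the sign of Cct2, Cct3 and Cct5 turned under quantile normalization); middle row, 4 endoplasmic reticulum genes in the libraries headed Con and Cal, all lower in Cal; bottom row, Hspb1, Hspb2, Hspb7 and Fkbp4, all higher in Cal than in Con (the sign of Fkbp4 turned under quantile normalization).

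The CCT chaperonin had 4 listed subunits, all lower in the libraries headed Cal than in those headed Model by the adjusted p and all under the fold limit, although the sign of Cct2, Cct3 and Cct5 turned under quantile normalization. Cct2 had 2906, 2748 and 2431 in the libraries headed Model and 1952, 1974 and 1917 in those headed Cal. Cct3 had 2660, 2470 and 2930 against 1805, 1970 and 1869, and Cct5 had 2794, 2565 and 2468 against 1869, 2069 and 1862. Cct6a, whose deposited biotype is processed transcript, had 2776, 2435 and 1776 against 1301, 1409 and 1164. In none of the 4 did the groups overlap, and the same held for 98.2% of all genes listed against Model. By the adjusted p, 53.7% of all genes listed against Model were lower. The log2 fold changes were -0.46 (limma adjusted p = 0.00954) for Cct2, -0.51 (0.00702) for Cct3, -0.43 (0.0119) for Cct5 and -0.83 (0.00493) for Cct6a, beside the median of -0.52 over all listed genes. Quantile normalization gave 0.09, 0.06 and 0.13 for Cct2, Cct3 and Cct5 and -0.32 for Cct6a, and after median-ratio scaling Cct6a alone was past the threshold (-0.53, limma adjusted p = 0.0230). Without the third library headed Model the fold change of Cct6a was -1.01, and without the first headed Cal the adjusted p of Cct5 was 0.0505. No CCT gene is listed against Con.

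Among the Hsp90 co-chaperones, Fkbp5 had the lowest fold change of the set against Model. Fkbp5 (ENSMUSG00000024222, chromosome 17 from 28399094 to 28517527) encodes an immunophilin that restrains the glucocorticoid receptor within the Hsp90 complex and is itself induced by glucocorticoids. It had 4525, 3282 and 3316 in the libraries headed Model and 298, 730 and 619 in those headed Cal, so the nearest libraries were 4.49-fold apart. It fell by 2.84 on the log2 scale (SE 0.33, limma adjusted p = 0.000440), between -3.09 and -2.44 with any library left out and at -2.40 to -2.54 under the other scalings. Against Con it had 261, 243 and 337 in the libraries headed Con and 333, 819 and 690 in those headed Cal. The first library headed Cal lay within the range of the libraries headed Con and the other two above it. The log2 fold change was 1.04 (SE 0.31, limma adjusted p = 0.0110), and the call was lost without the second (0.79) or the third (0.91) library headed Cal, without the second headed Con (0.95), and under median-ratio scaling (0.76) and quantile normalization (0.76, adjusted p = 0.0519). On the joined scale the libraries headed Model were 14.8-fold above those headed Con, across tables that were normalized separately.

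Fkbp4, the immunophilin that promotes steroid receptor activity in the same complex, was listed against Con alone. It had 6690, 5141 and 5965 in the libraries headed Con and 7187, 7366 and 7133 in those headed Cal, a change of 0.29 ± 0.10 on the log2 scale (SE, limma adjusted p = 0.0166) that median-ratio scaling took to 0.01 and quantile normalization to -0.14. Fkbp15, an endosomal actin-linked relative, was lower against Model, from 464 ± 34.3 to 313 ± 12.1 (SD, n = 3 each), and its log2 fold change of -0.56 (limma adjusted p = 0.00616) was not past the threshold after median-ratio scaling (adjusted p = 0.0992). The BAG proteins pointed in different directions against Con. Bag6, which guards membrane proteins before insertion, had 2163, 1853 and 1896 and then 2644, 2708 and 2736 in the libraries headed Cal (log2 fold change 0.46, limma adjusted p = 0.00193), which quantile normalization took to -0.01. Bag5, a nucleotide exchange factor of Hsp70, had 413, 490 and 450 and then 300.2, 297 and 252 (log2 fold change -0.67 ± 0.12 SE, limma adjusted p = 0.00203), and its fold change was -0.95 and -0.90 under the other scalings. Hsf2bp, a binding partner of heat shock factor 2 known from meiotic recombination and no chaperone itself, had 34.6, 39.0 and 40.3 in the libraries headed Model and fell to 3.69, 1.88 and 12.0 in those headed Cal (log2 fold change -2.80 ± 0.55 SE, limma adjusted p = 0.00274). It stands on few reads, and leaving out 1 library moved its fold change between -3.40 and -2.32.

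Endoplasmic reticulum members differed in opposite directions in the 2 tables, through different genes. Against Con, Pdia3, Pdia4, Dnajc3 and Dnajc14 were listed and all 4 were lower in the libraries headed Cal, without overlap and under the fold limit. Of all genes listed against Con, 97.4% had no overlap and 39.2% were lower by the adjusted p. Pdia3 (ENSMUSG00000027248), the disulfide isomerase that works with calnexin and calreticulin on glycoproteins, had 3471, 3772 and 3847 in the libraries headed Con and 3180, 2988 and 3179 in those headed Cal (log2 fold change -0.25 ± 0.07 SE, limma adjusted p = 0.0116). Pdia4, a further isomerase of the lumen, had 732, 679 and 719 against 540, 442 and 505 (log2 fold change -0.52 ± 0.11 SE, limma adjusted p = 0.00308). Dnajc3, the lumenal co-chaperone p58IPK that is induced by ER stress, had 1495, 1599 and 1448 against 1310, 1200 and 1058 (log2 fold change -0.35, limma adjusted p = 0.00990). Dnajc14, an ER membrane J protein, had 799, 794 and 739 against 587, 627 and 514 (log2 fold change -0.43, limma adjusted p = 0.00570). All 4 stayed lower under both other scalings, at -0.85 to -0.53, and without the third library headed Con the adjusted p of Pdia3 was 0.0517.

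Against Model, the listed ER members were Fkbp2 and Fkbp14, prolyl isomerases of the lumen, of which Fkbp14 acts on collagens. Fkbp2 (ENSMUSG00000056629) had 86.4, 51.2 and 84.3 in the libraries headed Model and 149, 177 and 169 in those headed Cal, and rose with a change of 1.18 ± 0.25 on the log2 scale (SE, limma adjusted p = 0.00370). Without the second library headed Model it was 0.94, under the limit. Fkbp14 had 133, 92.7 and 90.1 against 167, 184 and 205, a change of 0.83 ± 0.21 on the log2 scale (SE, limma adjusted p = 0.00790) that passed the limit at 1.01 without the first library headed Model and at 1.12 under median-ratio scaling.

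The ER stress element, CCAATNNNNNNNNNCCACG or its reverse complement, was present in the window of Dnajc3 alone among the 28 genes and in 0.0765% of the 27457 rat windows. The window lies at chr15:102432417-102432716 on the plus strand of GRCr8 and is printed with the element in capitals, because it shows the motif in a gene whose level was lower in the libraries headed Cal than in those headed Con.
Dnajc3: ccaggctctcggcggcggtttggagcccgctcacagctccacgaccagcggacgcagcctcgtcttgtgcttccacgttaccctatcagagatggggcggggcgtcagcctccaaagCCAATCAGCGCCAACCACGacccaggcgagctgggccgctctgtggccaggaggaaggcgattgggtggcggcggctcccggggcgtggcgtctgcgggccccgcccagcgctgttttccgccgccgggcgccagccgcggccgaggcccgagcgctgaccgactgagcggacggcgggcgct

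Other genes of the unfolded protein response and ER quality control, from a list of 36, were counted beside the chaperones. Against Model 8 were listed, of which 1 fell (Trib3), none rose, and by the adjusted p 2 were higher and 6 lower. Trib3, a target of the stress factor ATF4, had 212, 317 and 135 in the libraries headed Model and 22.1, 9.39 and 14.5 in those headed Cal (log2 fold change -3.76 ± 0.41 SE, limma adjusted p = 0.000346), and Atf4 itself had 3050 ± 512 against 1659 ± 121 (SD, n = 3 each, log2 fold change -0.87). Against Con 7 were listed, of which 1 rose (Ppp1r15a) and 1 fell (Trib3), and by the adjusted p 4 were higher and 3 lower. Ppp1r15a, which restores translation during stress, had 350.4, 383 and 412 in the libraries headed Con and 1936, 1340 and 1727 in those headed Cal (log2 fold change 2.11 ± 0.14 SE, limma adjusted p = 1.05e-05). Of 25 cytosolic folding genes outside the set, 1 was listed against Model and 4 against Con, all higher by the adjusted p and none called, with Serpinh1, the collagen chaperone Hsp47 of the ER that the list held among them, at log2 fold changes of 0.97 and 0.30. Of 14 mitochondrial genes, Clpx was lower against Model (-0.62) and Htra2 and Grpel1 were higher against Con (0.56 and 0.31), none of them called.

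Mitochondrial chaperones had 1 listed gene. Of 11 mitochondrial symbols that match the rule in RefSeq, 1 was listed, beside 28 of 88 cytosolic or nuclear and 6 of 29 ER symbols. For all symbols that match the rule it was 35 of 129. The share of all rat genes that were listed was not computed, so no depletion is read from these small counts. Dnajc28, a little-studied mitochondrial J protein, had 531, 588 and 429 in the libraries headed Model and 805, 797 and 737 in those headed Cal, a log2 fold change of 0.61 under the limit (SE 0.16, limma adjusted p = 0.00770), which was 0.94 under quantile normalization. The pseudogene Hspd1-ps3, a processed copy of the Hsp60 gene, had 424, 318 and 524 in the libraries headed Con and 116, 281 and 219 in those headed Cal and fell by 1.10 on the log2 scale (SE 0.32, limma adjusted p = 0.0104). Its reads may stem from Hspd1, which is not listed, and the call was lost without the first library headed Cal (-0.74) or the third headed Con (-0.93). Of 26 core chaperones chosen by name, 8 were listed. Hspa5, Hspa8, Hspa9, Hsp90aa1, Hsp90ab1, Hsp90b1, Hspd1, Hspe1, Hsph1, Cryab, Hsf1, Hsf2, Bag3, Stip1, Calr, Canx, Hyou1 and Pdia6 were in neither table and were not analysed here.

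Levels between genes were compared per kilobase of the deposited gene length. In the libraries headed Cal of the second table Hspb7 was highest at 10648 normalized counts per kilobase, followed by Hspb1 at 5030 and Fkbp4 at 2586, and Fkbp5 was lowest at 64.9. In the Cal and model table Hspb8 was highest at 3609, followed by Cct2 at 762 and Cct5 at 699, and Hsf2bp was lowest at 1.96. Hspa1b rose from 18.9 per kilobase in the libraries headed Model, below all but Hspa1a and Hsf2bp, to 321 in those headed Cal, where 4 of the 24 genes stood above it. Fkbp5 stood at 392 per kilobase in the libraries headed Model and at 58.0 in those headed Cal.

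**Figure D4:**
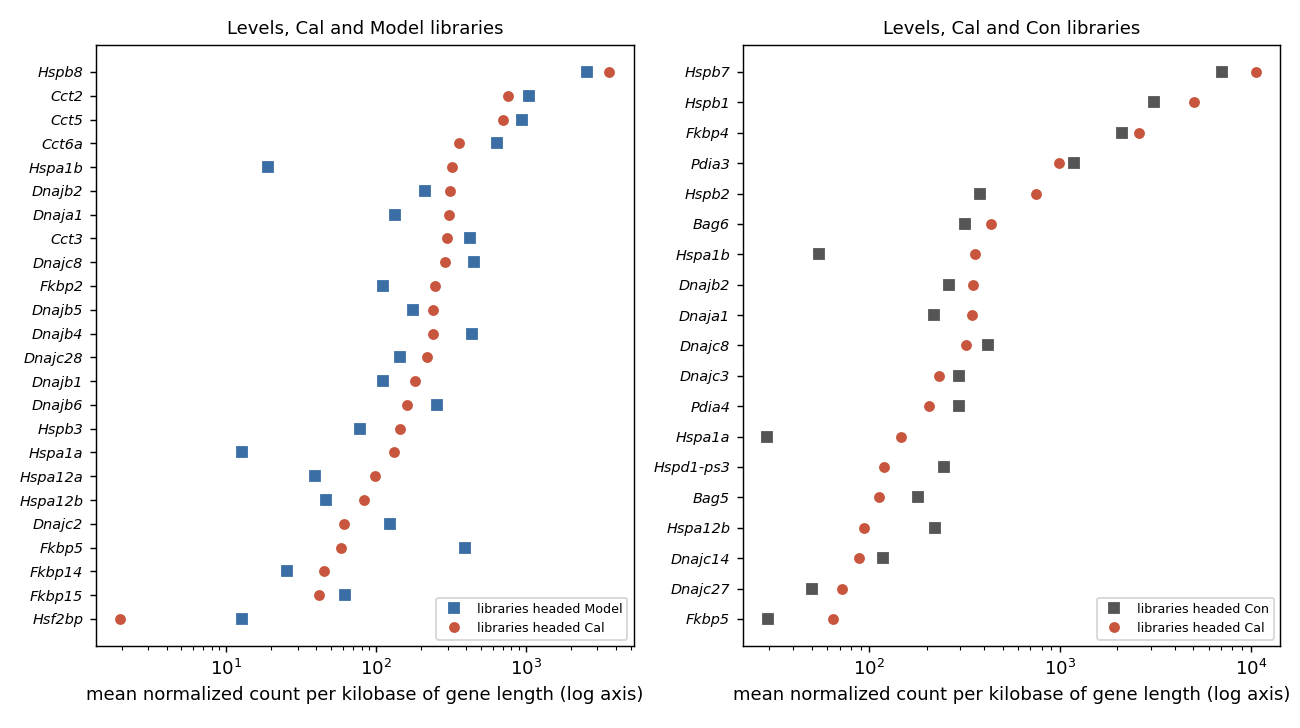
Mean normalized count per kilobase of deposited gene length (x axis, logarithmic) of each listed chaperone gene, for the libraries headed Cal (circles) and those headed Model (left, squares) or Con (right, squares), ordered by the level in the libraries headed Cal. Small heat shock proteins lead both panels, with Hspb8 at 3609 and Hspb7 at 10648, and Hspa1a and Hspa1b show the widest gaps towards a lower level outside the libraries headed Cal.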

How the data were processed

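Total cardiac RNA of 9 rats was sequenced after poly-T selection. The study's methods name a rat reference, whereas the deposited identifiers and coordinates are those of mouse genes and the submitters' processing notes name Bowtie 0.12.2 and the builds mm8 and mm9 without a role, so how rat reads met mouse genes is not given in the sources used here. The deposited sample columns hold a signal, the gene's read count divided by the size factor of the library in that table (0.820 to 1.17 and 0.950 to 1.07), as the authors made it. All values (100%) gave back whole reads within 0.1%, with 2860826 to 3998471 reads per library on the genes of the Cal and model table and 3270460 to 4659882 on those of the other. The full depth is unknown. The deposited p-value column was read only to check that the authors' adjusted p was under 0.05 in every row. Their fold change columns were not used. No column of another sample was present (0).

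Each table was fitted alone in limma 3.58.1 (R 4.3.3, eBayes with trend) on log2(normalized count + 1) over all its genes, with Benjamini-Hochberg adjustment. A pseudocount understates the change of low genes, and a table of genes already selected has many more calls than a whole transcriptome. Since the lists hold selected genes, an adjusted p here does not add independent support. Replicates were separate animals and differed by more than sampling noise, with a chi-square of 11.6 to 104 per degree of freedom. Alternatives were other pseudocounts (0.1 and 10), a mean of at least 10, other scalings, other thresholds, count tests on those reads (edgeR 4.0.16 and, apart, DESeq2 1.42.0), a replicate block and leaving out each library. Rat promoter windows were matched by symbol to RefSeq (GRCr8).

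Members and lists were chosen with earlier results of these data known. Genes were named by a list of 26 core chaperones, by presence in both tables, and as the 5 highest and 5 lowest fold changes per table among members whose higher group averaged 100 or more. The remaining members are described after their values were seen, so that every member is accounted for.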

Additional observations from a re-analysis of the deposited data

How the results depend on the processing

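Among the 28 named gene results of both tables, where a call needs both the adjusted p and the fold limit, 261 of 280 values under other settings kept their direction and stayed called or not called, 8 lost the call, 10 gained it and 1 changed sign. By the adjusted p alone all 28 passed in the reported fit and 23 of the 280 values did not, of which 21 belong to genes that were not called in either fit. The change of sign was Dnajb2 against Con, at -0.0327 under quantile normalization (limma adjusted p = 0.753). Without the fold limit the chaperone genes called were 13 higher and 11 lower against Model and 11 and 8 against Con. Median-ratio scaling gave 8 higher against Model, and an adjusted p under 0.01 left 1 lower against Con. Leaving out 1 library gave 5 to 7 higher and 2 to 4 lower against Model, and 2 to 4 higher and 1 to 2 lower against Con. The cause of these changes was not tested, apart from the thresholds themselves. The count tests on recovered reads, edgeR and DESeq2, each called 5 higher and 3 lower against Model and 3 and 2 against Con.

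The samples share a replicate number but not an animal. The deviations of same-numbered libraries correlated at 0.11, -0.12 and -0.08 in the Cal and model table and at -0.02, -0.12 and -0.14 in the other, so they were not treated as pairs. With the replicate block 5 were higher and 2 lower against Model, and 3 and 2 against Con.

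The tables hold selected genes alone, so the full depth and a floor for chaperones that are not listed are not given, and 3 libraries per group limit the precision of every value.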
